A study of Mus musculus with 11 samples.

Results

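The genes described here are 10 imprinted genes of several clusters of the mouse genome, H19, Igf2, Meg3, Rian, Dlk1, Peg3, Peg10, Mest, Snrpn and Impact, of 54838 gene identifiers in the count files. They were taken by symbol after each Ensembl identifier was matched to the GRCm38 annotation, and all 10 were among the 16073 genes that passed the filter on low counts. RNA was measured in E14 cells, a line of mouse embryonic stem cells (ESCs) kept undifferentiated with the cytokine LIF on gelatin and in serum replacement, with no feeder layer or genetic change named in the labels. The cells had received a scrambled control siRNA (3 libraries), CMTR1 siRNA 1 (4 libraries) or CMTR1 siRNA 2 (4 libraries) 36 h earlier. CMTR1 is the methyltransferase that adds a 2′-O-methyl group to the first transcribed nucleotide next to the mRNA cap, and the comparison asks which transcripts change when it is reduced. All libraries come from this 1 line. The methods call the sequenced replicates biological, but neither they nor the labels say which libraries were separate cultures, so p-values measure the spread between these samples, which may be technical.

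An imprinted gene is transcribed mainly from the copy inherited from a single parent, because DNA methylation laid down in the egg or the sperm marks a control region near it. That mark is kept through cell division and, in the early embryo and in ESCs, is protected by the zinc finger protein ZFP57 with the corepressor TRIM28 while most of the genome loses methylation. Imprinted genes lie in clusters, some of them with a long noncoding RNA from the maternal copy and a growth-promoting protein from the paternal copy. H19 and Igf2 form such a pair, as do the noncoding RNAs Meg3 and Rian with Dlk1. ESC lines are known to vary in imprinted expression. The reads were not divided by parental allele, so the values below are the sum over both copies and do not measure imprinting itself.

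The library total was between 6738478 and 8382318 reads counted on genes, and levels are given in CPM, the usual scaling of a gene's count by the library total. The most abundant gene, Gm26917, held 4.86 to 6.34% of the counts. The transcript that both siRNAs target, Cmtr1, gave 21.3, 21.7 and 17.9 CPM with the scrambled siRNA. It gave 21.1, 21.3, 16.2 and 18.04 CPM with siRNA 1 and 15.6, 16.8, 16.4 and 19.5 CPM with siRNA 2. These groups overlap, and neither the difference with siRNA 1 (log2 fold change −0.09 ± 0.11 SE, adjusted p = 0.743) nor that with siRNA 2 (−0.25 ± 0.11 SE, adjusted p = 0.144) passed the test. Of the exon bases of Cmtr1, 63.7% are free of other genes on its strand and 24.2% on either strand. Reads shared with another gene may be missing from its count, and whether this bears on the differences between groups was not tested. The labels are used for the groups as given.

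Sequence around the start sites is shown for the 2 members of the Dlk1-Dio3 cluster that passed a test below and for Mest, whose promoter holds the letters that ZFP57 is known to recognise. These letters are TGCCGC, read on either strand (GCGGCA on the other), and are in capitals. RefSeq windows of 300 bases, from 250 before to 50 after a start site on GRCm38.p6, were searched for 7 of the 10 members (16 windows). H19, Peg10 and Impact were not searched. The letters occur in 5 of these 16 windows, of 4 members, and in 11.6% of all 32851 windows. The 5 include 2 overlapping Mest windows, starting at 30737800 and 30737803, that hold the same 2 places. Where a member had several windows, the one with the most matches is shown. The other Meg3 window has no match and 1 CpG dinucleotide, and another Mest window has no match and 8. The window of Meg3 (chr12:109540746-109541045, plus strand) has 13 CpG dinucleotides, that of Dlk1 (chr12:109452573-109452872, plus strand) has 9 and that of Mest (chr6:30737800-30738099, plus strand) has 17, beside a median of 7 over all windows. The letters stand once in the Meg3 window, nowhere in the Dlk1 window and at 2 places in the Mest window. A match is a description of the sequence and not a measured binding site.
Meg3: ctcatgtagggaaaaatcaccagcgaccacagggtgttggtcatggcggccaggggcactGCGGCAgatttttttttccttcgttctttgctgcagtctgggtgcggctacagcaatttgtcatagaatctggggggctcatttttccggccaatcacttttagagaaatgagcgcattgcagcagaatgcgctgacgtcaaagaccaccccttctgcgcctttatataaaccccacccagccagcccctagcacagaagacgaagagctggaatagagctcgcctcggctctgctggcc
Dlk1: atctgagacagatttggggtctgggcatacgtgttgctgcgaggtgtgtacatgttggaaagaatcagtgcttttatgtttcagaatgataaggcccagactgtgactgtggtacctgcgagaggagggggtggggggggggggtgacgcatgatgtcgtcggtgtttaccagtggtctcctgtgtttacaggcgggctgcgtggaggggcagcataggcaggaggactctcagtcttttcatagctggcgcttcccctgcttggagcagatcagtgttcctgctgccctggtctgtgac
Mest: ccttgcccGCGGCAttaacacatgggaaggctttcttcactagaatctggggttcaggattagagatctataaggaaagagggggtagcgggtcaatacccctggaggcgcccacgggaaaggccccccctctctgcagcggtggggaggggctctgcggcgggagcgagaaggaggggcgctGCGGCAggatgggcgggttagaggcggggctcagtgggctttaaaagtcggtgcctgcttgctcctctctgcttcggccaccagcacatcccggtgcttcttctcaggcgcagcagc

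Several of the members searched (all but Impact) host microRNAs on their own strand, and those of H19 and Mest are shown as examples from a noncoding and a coding host. The mature forms (RefSeq, GRCm38.p6) follow, with the seed, bases 2 to 8, in capitals. No seed is shared among the 4.
miR-675-5p, from within H19: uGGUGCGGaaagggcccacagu
miR-675-3p, from within H19: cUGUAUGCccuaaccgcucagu
miR-335-5p, from within Mest: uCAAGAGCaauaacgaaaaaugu
miR-335-3p, from within Mest: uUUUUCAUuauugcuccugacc
The libraries held fragments of long RNA and do not measure mature microRNAs. The gene Mir675 had 0 reads in every library, and Mir335 had 49 reads over all 11 libraries. Of the microRNA genes not shown, Mir1188, Mir341 and Mir370 within Rian had 411, 269 and 76 reads over all libraries, and Mir483 within Igf2 and Mir770 and Mir1906-1 within Meg3 had 0. Of the exon bases of Mir675 and of Mir770, 0.0% are free of other genes on their strand, against 100.0% for Mir335. Reads from Mir675 and Mir770 may therefore not be counted on them, and their 0 does not measure their RNA.

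The 10 imprinted genes differed far more from each other than between the siRNA groups. Per kilobase of exon, the control libraries held 163 ± 6.65 CPM per kb of Peg10 (SD, n = 3), a protein derived from a retrotransposon and needed in the placenta. Mest, which encodes a protein with a hydrolase fold, followed at 89.3 ± 2.76 CPM per kb, and Impact, an inhibitor of the stress kinase GCN2, at 52.9 ± 3.72 CPM per kb. Rian at 40.8 ± 3.32 and Meg3 at 38.4 ± 0.739 CPM per kb came next, and the ranges of these neighbours over the control libraries overlapped. H19 (28.0 ± 1.06 CPM per kb), Snrpn (25.3 ± 0.196) and Peg3 (20.5 ± 0.594) formed the next steps. Dlk1 stood at 1.45 ± 0.143 CPM per kb and Igf2 at 0.195 ± 0.0554 CPM per kb, so the growth factor was the lowest member. Apart from Rian and Meg3, no neighbours in this order overlapped over the 3 control libraries.

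The order was the same with siRNA 1, and with siRNA 2 the close pair Meg3 (40.8 ± 2.59 CPM per kb, SD, n = 4) and Rian (40.6 ± 0.874) changed places. With the length of the longest transcript in place of all exons, Rian (91.9 CPM per kb) came ahead of Impact (72.1), and Peg3 (31.4) passed H19 (30.2) and Snrpn (26.3). Of the exon bases of Igf2, 37.2% are free of other genes on its strand, and over those alone its control level would be 0.525 CPM per kb, still the lowest. By this length of unshared exon, Snrpn (34.8 CPM per kb) came ahead of H19 (29.0).

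**Figure D1:**
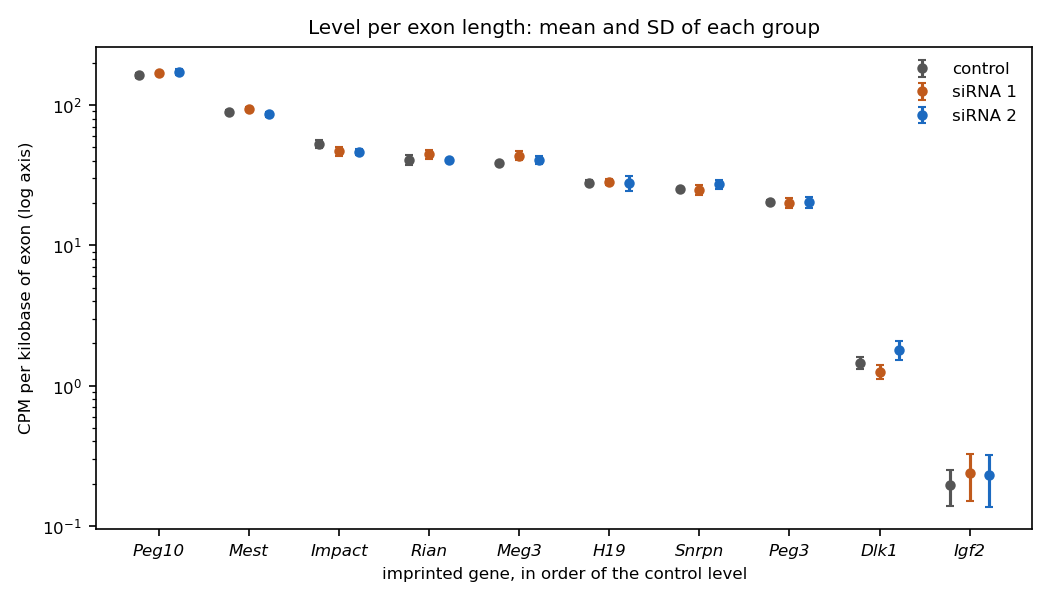
Level of the 10 imprinted genes in CPM per kilobase of exon (vertical log axis), in the order of their control level, with points for the mean and bars for the SD of the control (n = 3), siRNA 1 (n = 4) and siRNA 2 (n = 4) libraries. The 3 groups lie close together for every gene, from about 163 CPM per kb for Peg10 down to about 0.195 for Igf2 in the controls.

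Against the control, most of the imprinted genes changed little with either siRNA. With siRNA 1, 2 of the 10 passed the test at an adjusted p of 0.05, with Meg3 higher and Impact lower. Over all 16073 genes 4.67% passed, 2.71% higher and 1.97% lower. With siRNA 2, only Impact passed, again lower, where 9.72% of all genes passed, 6.17% higher and 3.55% lower. Both comparisons use the same 3 control libraries, so the lower Impact in each is not 2 separate results. The same limit holds for every other gene below that passed with both siRNAs. The median log2 fold change of the 10 genes was 0.03 with siRNA 1 and 0.04 with siRNA 2, beside 0.02 and 0.03 over all genes tested. For the 8 members other than Igf2 and Dlk1, whose counts were low, the standard errors were 0.043 to 0.069 and all 16 of the 95% intervals lay within −0.30 to 0.28 on the log2 scale. The groups did not overlap for 2 members with siRNA 1 (15.5% of all genes) and for 1 member with siRNA 2 (19.4% of all genes).

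**Figure D2:**
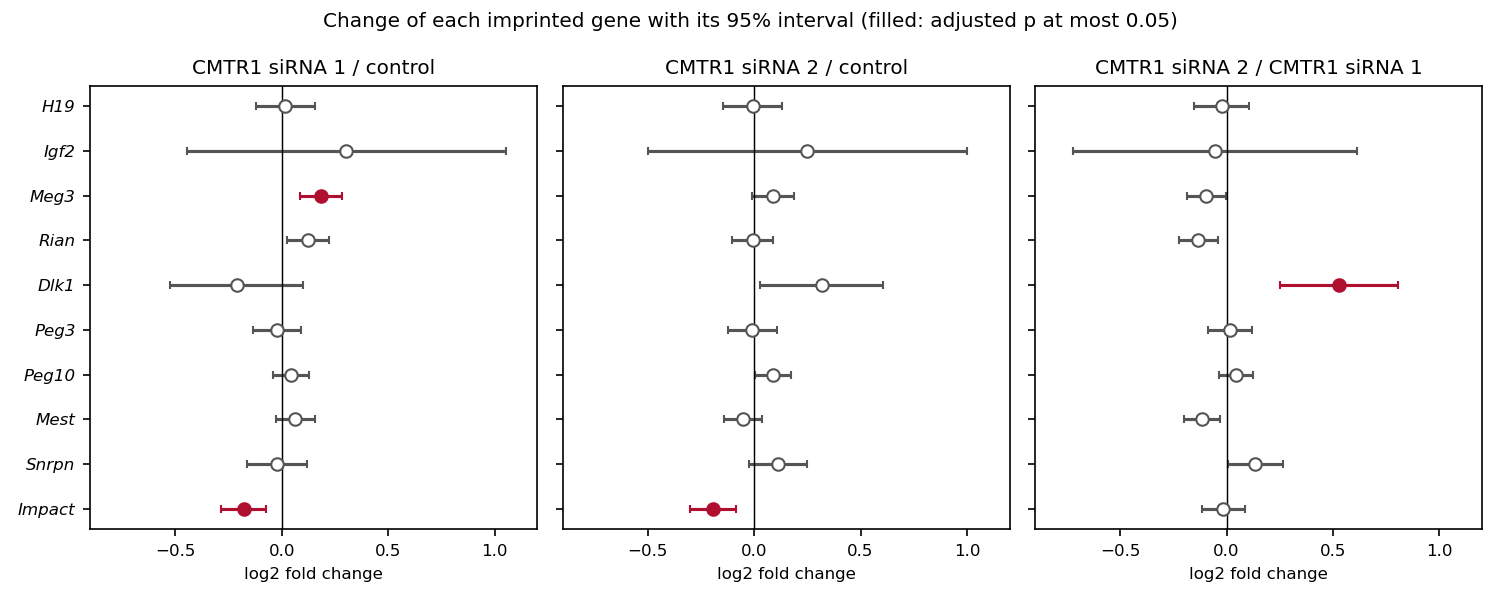
Log2 fold change of each imprinted gene (horizontal axis) with its 95% interval from edgeR, for each siRNA against control and for siRNA 2 against siRNA 1. Filled red points passed the test, which are Meg3 (0.18) and Impact (−0.18) with siRNA 1, Impact (−0.19) with siRNA 2, and Dlk1 (0.53) between the siRNAs.

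In the H19-Igf2 cluster at the end of chromosome 7, neither gene passed a test. H19, a maternally expressed noncoding RNA (chr7:142575529-142578143, minus strand), was at 66.1, 71.3 and 69.4 CPM in the controls. It was at 68.6, 72.9, 65.9 and 71.4 CPM with siRNA 1 and at 58.0, 74.2, 75.9 and 65.9 CPM with siRNA 2. The groups overlap, and the siRNA 2 libraries span the others on both sides. The log2 fold change was 0.02 (95% interval −0.12 to 0.15, adjusted p = 0.944) with siRNA 1 and −0.01 (−0.15 to 0.13, adjusted p = 0.969) with siRNA 2, and scaling by TMM or by DESeq2's size factors put the first below 0.

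Igf2, the fetal growth factor of the paternal copy (chr7:142650766-142666816, minus strand), gave 7, 8 and 11 reads in the controls. With siRNA 1 it gave 10, 16, 9 and 6 reads and with siRNA 2 it gave 9, 11, 5 and 16 reads. At this depth the 95% interval of the log2 fold change ran from −0.45 to 1.05 with siRNA 1 and from −0.50 to 1.00 with siRNA 2, so a change of Igf2 within these bounds was not detectable. Igf2 shares exon bases with the gene model Gm49394, which had 2 reads over all libraries.

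In the Dlk1-Dio3 cluster on chromosome 12, the noncoding RNA of the maternal copy rose with siRNA 1. Meg3 (chr12:109541001-109571726, plus strand; its promoter is printed above) was at 708, 682 and 692 CPM in the controls. It was at 842, 827, 709 and 774 CPM with siRNA 1, all above the controls, although replicate 3 exceeded the highest control only in the first decimals (709.1 against 708.3). The rise was 13.5% (log2 fold change 0.18 ± 0.05 SE, adjusted p = 0.0191). It did not pass in DESeq2 (adjusted p = 0.0987), nor without control replicate 2 (0.117), control replicate 3 (0.0809), siRNA 1 replicate 1 (0.0868) or siRNA 1 replicate 2 (0.110), each as an adjusted p. With siRNA 2 Meg3 was at 734, 744, 793 and 679 CPM, a range that includes all 3 controls (log2 fold change 0.09 ± 0.05 SE, adjusted p = 0.286). The difference between the siRNAs was −0.10 ± 0.05 SE and did not pass (adjusted p = 0.208), but it passed without siRNA 1 replicate 3 (−0.14, adjusted p = 0.0386).

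Rian, a second maternally expressed noncoding RNA and the host of a large group of small nucleolar RNAs (chr12:109603940-109661716, plus strand), was at 814, 709 and 709 CPM in the controls. Its siRNA 1 libraries were at 854, 867, 755 and 766 CPM and its siRNA 2 libraries at 732, 721, 750.2 and 756 CPM. Control replicate 1 was higher than the other controls and lay within the siRNA 1 range. The log2 fold change of 0.12 ± 0.05 SE with siRNA 1 did not pass (adjusted p = 0.147), but without control replicate 1 it was 0.19 and passed (adjusted p = 0.0243). With siRNA 2 it was −0.01 ± 0.05 SE (adjusted p = 0.953).

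Dlk1, the paternally expressed transmembrane ligand related to the Notch ligands (chr12:109452823-109463336, plus strand), was the gene of the cluster whose 2 siRNA groups lay apart. It was at 9.01, 7.40 and 8.21 CPM in the controls, from 60 to 71 reads. With siRNA 1 it was at 8.31, 6.48, 7.0 and 6.68 CPM, and with siRNA 2 it was at 8.95, 12.5, 9.71 and 9.51 CPM. Every siRNA 2 library was above every siRNA 1 library, and the controls lay between and overlapped with both. Dlk1 was 44.3% higher with siRNA 2 than with siRNA 1 (log2 fold change 0.53 ± 0.14 SE, adjusted p = 0.0115). Against control neither the siRNA 1 value (−0.21 ± 0.15 SE, adjusted p = 0.534) nor the siRNA 2 value (0.32 ± 0.14 SE, adjusted p = 0.163) passed. Between the siRNAs 7.44% of all genes passed (4.49% higher and 2.96% lower with siRNA 2) and 11.8% did not overlap, and Dlk1 was the 1 member that did either. The call was lost in DESeq2 (adjusted p = 0.0514), without siRNA 1 replicate 2 (0.0534) and without siRNA 2 replicate 2, which held the highest value (log2 fold change 0.41, adjusted p = 0.0837). The summed level of 8 fibroblast markers also lay apart between these groups, at 29.1 to 31.5 CPM with siRNA 1 and 36.9 to 43.5 CPM with siRNA 2. Of the 6 markers tested, 5 were higher and 1 lower with siRNA 2 than with siRNA 1, and 2 passed, both higher. The part of these markers in the Dlk1 difference was not tested.

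**Figure D3:**
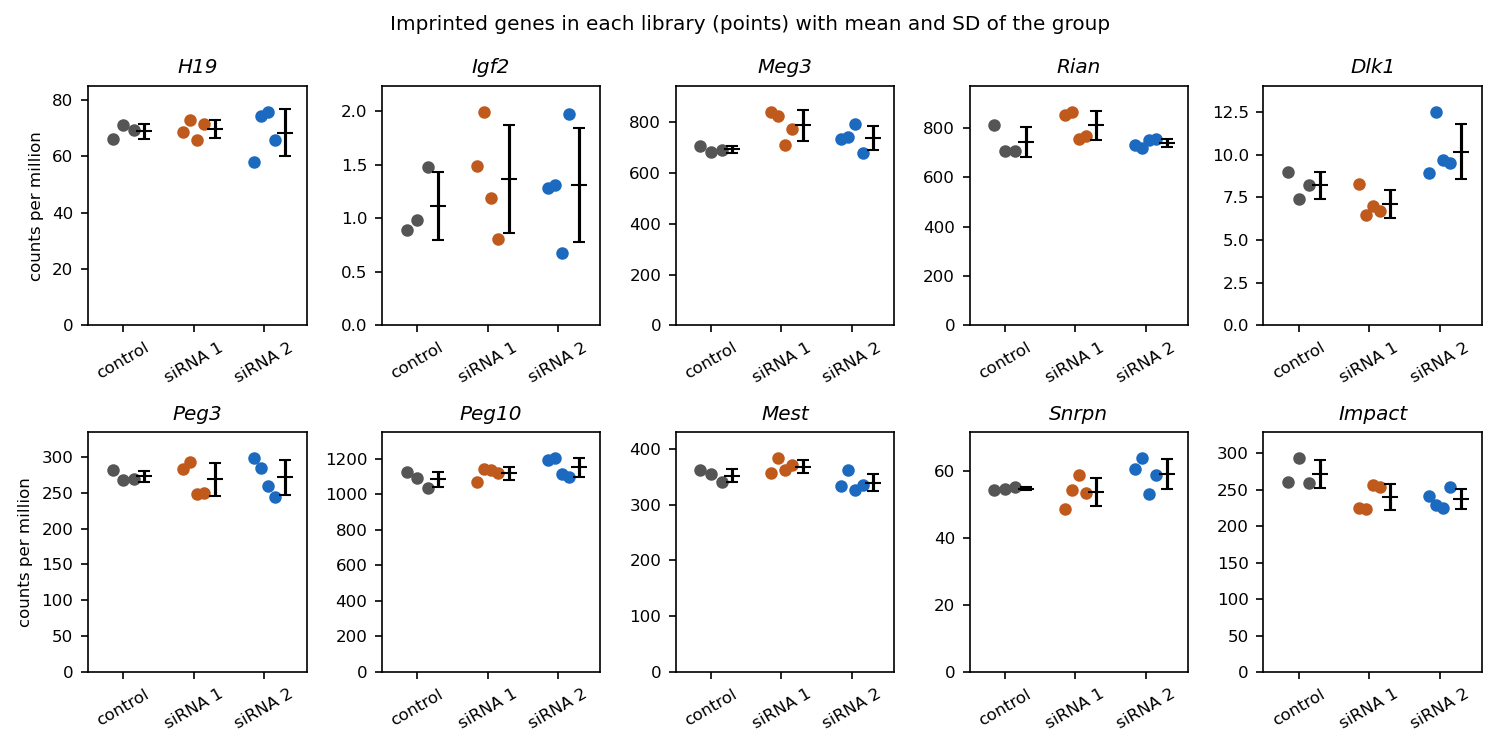
CPM of the 10 imprinted genes (vertical axes from 0) in each control, siRNA 1 and siRNA 2 library (points, side by side), with the mean and SD of each group beside them. Dlk1 shows the siRNA 2 libraries (8.95 to 12.5) above the siRNA 1 libraries (6.48 to 8.31), and Impact shows the controls (259.8 to 293) above all 8 siRNA libraries.

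Of the remaining paternally expressed members, only Impact changed. Peg3, a zinc finger protein that heads its own cluster (chr7:6703892-6730431, minus strand), was at 282, 268 and 269 CPM in the controls, 249 to 293 CPM with siRNA 1 and 244 to 298 CPM with siRNA 2. Its log2 fold changes were −0.02 ± 0.06 SE (adjusted p = 0.889) and −0.01 ± 0.06 SE (adjusted p = 0.956). Peg10 (chr6:4747306-4760517, plus strand) was at 1126, 1091 and 1038 CPM in the controls, 1068.5 to 1143 CPM with siRNA 1 and 1193, 1204, 1114 and 1100.3 CPM with siRNA 2. Its differences of 0.04 ± 0.04 SE and 0.09 ± 0.04 SE did not pass (adjusted p = 0.665 and 0.201).

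Mest (chr6:30723547-30748465, plus strand) was at 362, 355 and 340.4 CPM in the controls, and its siRNA 1 libraries (356 to 383 CPM) lay mostly above its siRNA 2 libraries (327 to 362 CPM). The difference between the siRNAs, −0.12 ± 0.04 SE, did not pass (adjusted p = 0.0764) but passed without siRNA 2 replicate 2 (−0.15, adjusted p = 0.0255). Rian showed a difference of like size between the siRNAs, −0.13 ± 0.04 SE (adjusted p = 0.0610), which passed without siRNA 1 replicate 3 (−0.16, adjusted p = 0.0217) or siRNA 1 replicate 4 (−0.16, adjusted p = 0.0454), with no filter on low counts (adjusted p = 0.0290) and with Gm26917 left out of the library size (adjusted p = 0.0493). Snrpn, a core protein of the spliceosome (chr7:59982495-60140219, minus strand), was at 54.2, 54.5 and 55.0 CPM in the controls, 48.5 to 58.8 CPM with siRNA 1 and 53.0 to 63.7 CPM with siRNA 2. Its log2 fold changes of −0.02 ± 0.07 SE and 0.11 ± 0.07 SE did not pass (adjusted p = 0.920 and 0.319). Snurf, which lies wholly within Snrpn, had 0 reads in every library, and 72.7% of the exon bases of Snrpn are free of other genes on its strand. For Snurf this share is 0.0%, so its reads may not be counted on it and its 0 does not measure its RNA.

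Impact (chr18:12955852-12992950, plus strand) encodes a protein known to bind GCN1 and to hold back activation of GCN2, the kinase that senses amino acid shortage. It was at 261, 293 and 259.8 CPM in the controls, at 224, 224, 256 and 254 CPM with siRNA 1 and at 241, 229.8, 224 and 254 CPM with siRNA 2. All 8 siRNA libraries were below the lowest control, the nearest of them by a few CPM (256 against 259.8). Impact fell by 11.7% with siRNA 1 (log2 fold change −0.18 ± 0.05 SE, adjusted p = 0.0383) and by 12.5% with siRNA 2 (−0.19 ± 0.05 SE, adjusted p = 0.0140). The highest control, replicate 2, carried part of this, since without it the values were −0.12 (adjusted p = 0.374) and −0.13 (adjusted p = 0.189). The siRNA 1 call was also lost without siRNA 1 replicate 1 (adjusted p = 0.140) or siRNA 1 replicate 2 (adjusted p = 0.193). These 2 libraries (224 CPM each) lay farther from the controls than the other siRNA 1 libraries, as they did for Meg3.

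Within the clusters that hold a member, some neighbours passed the test. In the H19-Igf2 and Kcnq1 region 11 of 14 genes were tested. Cd81, a tetraspanin of the cell surface, rose with both siRNAs from 102 to 106 CPM in the controls to 115 to 134 CPM with siRNA 1 (log2 fold change 0.27 ± 0.06 SE, adjusted p = 0.00144) and to 115 to 124 CPM with siRNA 2 (0.18 ± 0.06 SE, adjusted p = 0.0273). Cdkn1c, an inhibitor of cyclin-dependent kinases, rose with siRNA 2 (0.37 ± 0.11 SE, adjusted p = 0.0245) to 22.1 to 31.4 CPM, which overlaps with the controls at 18.3 to 23.4 CPM. Tspan32, a tetraspanin, rose to 1.56 to 3.10 CPM, which also overlaps with the controls at 1.08 to 1.65 CPM (0.89 ± 0.30 SE, adjusted p = 0.0479). Kcnq1ot1, the long noncoding RNA of the region, was at 1292 CPM in the controls over its 93092 exon bases and differed by 0.05 with siRNA 1 (adjusted p = 0.701) and 0.04 with siRNA 2 (adjusted p = 0.742). The other genes tested (Ascl2, Tssc4, Phlda2, Nap1l4 and Osbpl5) did not pass, with log2 fold changes of −0.16 to 0.36. The siRNA 2 calls of Cd81, Cdkn1c and Tspan32 were each lost without control replicate 2, without control replicate 3 or without siRNA 2 replicate 2, with adjusted p of up to 0.114, 0.169 and 0.183 when any 1 library was left out. Cdkn1c was also lost without siRNA 2 replicate 1 and in DESeq2, and Cd81 with TMM factors and in DESeq2. Tspan32 was lost under 11 of 15 alternatives, which include siRNA 2 replicate 4 left out, TMM factors, DESeq2 and edgeR's exact test.

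Among the genes near Dlk1, the noncoding RNA Mirg passed only between the siRNAs, at 169 to 198 CPM with siRNA 2 and 183 to 238 CPM with siRNA 1 (−0.24 ± 0.06 SE, adjusted p = 0.00877), and Begain did not pass. This difference was lost in DESeq2 and without siRNA 1 replicate 1 or 2, with an adjusted p of up to 0.0896 when any 1 library was left out. In the Peg3 cluster Zfp264, annotated as a transcribed pseudogene, rose with siRNA 2 from 9.69 to 12.95 CPM in the controls to 15.3 to 18.01 CPM (0.55 ± 0.12 SE, adjusted p = 0.00120), while Usp29 and Zim1 did not pass. In the Peg10 cluster Sgce, the sarcoglycan gene that shares a start region with Peg10, rose with siRNA 1 (0.40 ± 0.12 SE, adjusted p = 0.0496), a call lost under 10 of 15 alternatives, among them without any 1 of the controls or of siRNA 1 replicates 1, 2 and 4 (adjusted p of up to 0.203). Pon2, a lactonase, rose with siRNA 2 (0.35 ± 0.11 SE, adjusted p = 0.0309) and was 0.47 ± 0.10 SE higher than with siRNA 1 (adjusted p = 0.00233). Its rise against control was lost in DESeq2 and without control replicate 2, control replicate 3, siRNA 2 replicate 3 or siRNA 2 replicate 4 (adjusted p of up to 0.187). Calcr, Ppp1r9a, Pon3 and Asb4 did not pass.

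Copg2, next to Mest, passed only between the siRNAs (−0.20 ± 0.07 SE, adjusted p = 0.0446), a call lost under 9 of 16 alternatives, among them without siRNA 1 replicate 1, 3 or 4 or siRNA 2 replicate 1, 2 or 3 (adjusted p of up to 0.134). In the Snrpn region Peg12 rose with siRNA 1 from 4.70 to 5.43 CPM in the controls to 8.19 to 11.7 CPM (0.91 ± 0.16 SE, adjusted p = 0.000281). With siRNA 2 it was at 5.06 to 7.52 CPM (0.22 ± 0.18 SE, adjusted p = 0.479), and the difference between the siRNAs passed (−0.69 ± 0.15 SE, adjusted p = 0.00166). Ndn, Magel2, Mkrn3, Snhg14, Ube3a and Atp10a of the same region did not pass, with log2 fold changes of −0.04 to 0.42.

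Over the wider list of 62 other imprinted genes, 50 were tested, and the 12 others were under the filter, with at most 56 reads each over all libraries. With siRNA 1, 7 passed, 4 higher and 3 lower (14.0% of those tested, beside 4.67% of all genes). With siRNA 2, 13 passed, 9 higher and 4 lower (26.0%, beside 9.72%). Between the siRNAs 11 passed, 6 higher and 5 lower with siRNA 2 (22%, beside 7.44%). The median log2 fold change of the list was 0.05 with siRNA 1 and 0.06 with siRNA 2, beside 0.02 and 0.03 over all genes. The list was chosen with earlier results of these data known, and the counts were as low as 4 and 7 when any 1 library was left out. Of the 7 and 13 calls, 4 and 6 held under all 15 alternatives. With the members included, the genes were also split by the parental copy listed for each, which was not measured in these cells and can depend on the tissue. Of the 29 genes tested that are listed as paternally expressed, 5 passed with siRNA 1 and 4 with siRNA 2. Of the 30 tested that are listed as maternally expressed, 4 passed with siRNA 1 and 10 with siRNA 2. The difference between these 2 sets was not tested.

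Among those that held, Cobl, an actin nucleator in the Grb10 cluster, fell with both siRNAs from 129 to 145 CPM in the controls to 90.4 to 111 CPM (−0.45 ± 0.07 SE, adjusted p = 7.24e-05) and 86.1 to 117 CPM (−0.45 ± 0.07 SE, adjusted p = 3.79e-05). Sfmbt2, a Polycomb-related gene, fell from 106 to 115 CPM in the controls to 76.1 to 94.8 CPM with siRNA 1 (−0.39 ± 0.07 SE, adjusted p = 0.000108). With siRNA 2 it was at 85.5 to 107 CPM and overlapped with the controls (−0.22 ± 0.07 SE, adjusted p = 0.0252), a call lost without control replicate 2 or 3 or without siRNA 2 replicate 1 or 2 (adjusted p of up to 0.134). Slc38a4, an amino acid transporter, rose with siRNA 2 from 191 to 198 CPM to 250.3 to 259.9 CPM (0.39 ± 0.05 SE, adjusted p = 5.37e-08). It lay at 204 to 221 CPM with siRNA 1, between the groups, and was 0.26 ± 0.04 SE higher with siRNA 2 than with siRNA 1 (adjusted p = 4.26e-05).

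Grb10, an adaptor that restrains insulin and IGF receptors, rose with siRNA 2 from 62.4 to 65.0 CPM to 70.1 to 84.1 CPM (0.29 ± 0.06 SE, adjusted p = 0.00171). Gnas, which encodes the alpha subunit of the stimulatory G protein, rose with siRNA 2 from 150.2 to 155 CPM to 169 to 198 CPM (0.27 ± 0.05 SE, adjusted p = 0.000712). Dcn, the matrix proteoglycan decorin, rose with siRNA 2 from 1.60 to 2.03 CPM to 3.10 to 4.53 CPM (1.13 ± 0.25 SE, adjusted p = 0.00209), and it is also one of the fibroblast markers. Calls that did not hold under every alternative included Blcap (0.28, higher) and Zdbf2 (−0.17, lower) with siRNA 1, and H13 (−0.22) and Trappc9 (−0.29), both lower, with siRNA 2. Blcap was lost without any 1 of the controls or of siRNA 1 replicates 1, 2 and 4 (adjusted p of up to 0.236), with TMM factors, in DESeq2 and with Gm26917 left out of the library size, and Zdbf2 without any 1 of the controls or of siRNA 1 replicates 1 and 2 (up to 0.103). H13 was lost without control replicate 1 or siRNA 2 replicate 1 (adjusted p of up to 0.142), and Trappc9 without control replicate 2 or 3 or siRNA 2 replicate 1 or 4 (up to 0.229), with a replicate block and in DESeq2. Nespas passed between the siRNAs only (−0.18 ± 0.06 SE, adjusted p = 0.0473), a call lost without siRNA 1 replicate 1, 2 or 4 or siRNA 2 replicate 1, 2 or 4 (adjusted p of up to 0.156), with a replicate block, with these 2 groups alone and in DESeq2.

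**Figure D4:**
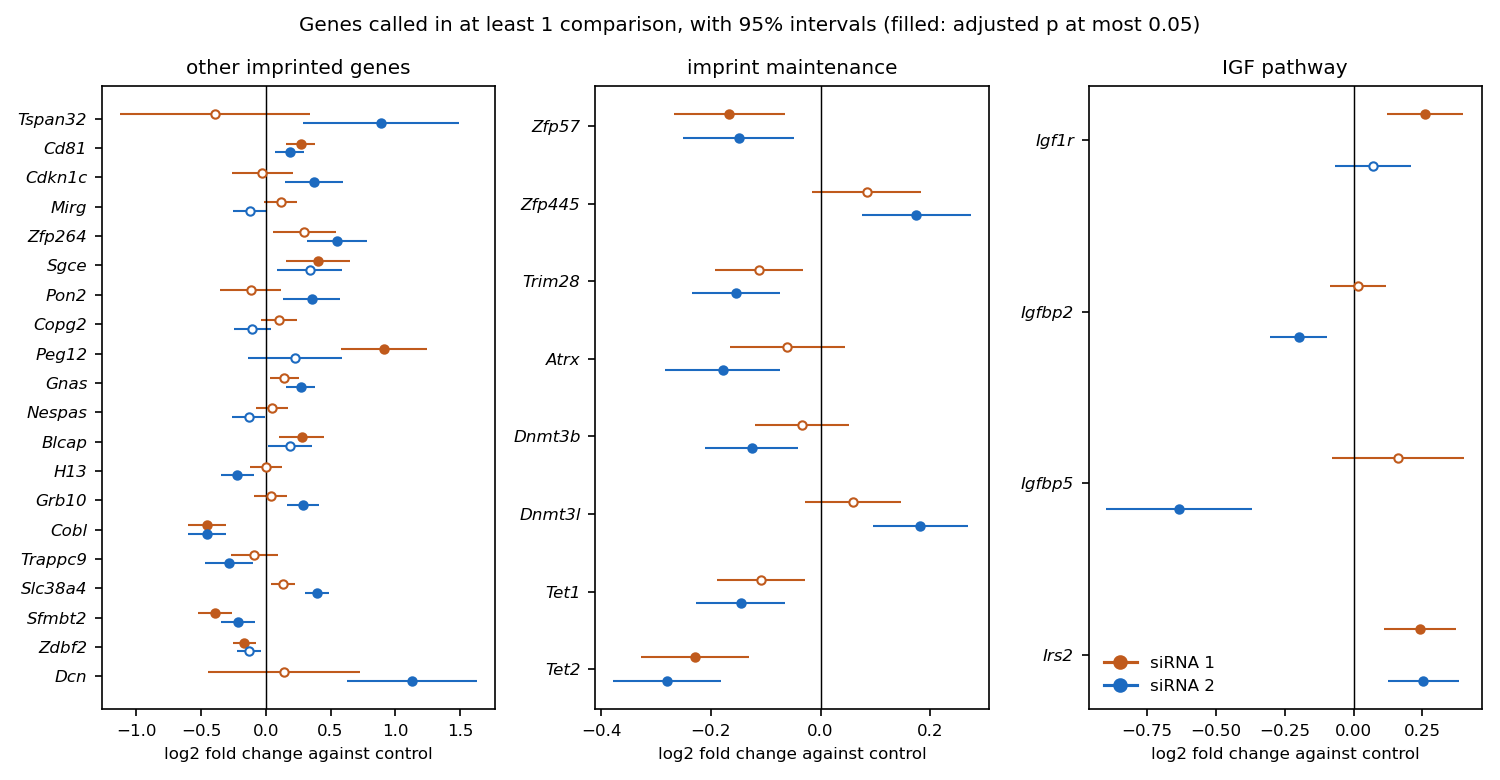
Log2 fold change against control (horizontal axis) with its 95% interval for siRNA 1 and siRNA 2, for the genes of 3 lists that passed the test in at least 1 of the 3 comparisons. Filled points passed the test, such as Cobl (−0.45 with each siRNA), Peg12 (0.91 with siRNA 1), Tet2 (−0.23 and −0.28) and Igfbp5 (−0.63 with siRNA 2).

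The genes that keep, read, lay down or remove DNA methylation marks moved by small amounts. Of the 18 genes of this list, all of which were tested, 2 fell with siRNA 1 (11.1% called, beside 4.67% of all genes), and 6 fell and 2 rose with siRNA 2 (44.4% called, beside 9.72%). The median log2 fold change of the list was −0.03 with siRNA 1 and 0.03 with siRNA 2, beside 0.02 and 0.03 over all genes. Zfp57, the zinc finger gene that marks control regions for protection, was at 208, 225 and 212 CPM in the controls. It was at 193, 185, 197 and 192 CPM with siRNA 1 (−0.17 ± 0.05 SE, adjusted p = 0.0432) and at 181, 184, 205 and 205 CPM with siRNA 2 (−0.15 ± 0.05 SE, adjusted p = 0.0476). All siRNA libraries were below the controls, but these calls were lost under 5 and 7 of 15 alternatives, with siRNA 1 without control replicate 2 or 3 or siRNA 1 replicate 1, 2 or 4 (adjusted p of up to 0.285), and with siRNA 2 among them without any 1 of the controls or of siRNA 2 replicates 1 and 2 (up to 0.260). Tet2, a dioxygenase that oxidises methylated cytosine, fell from 246 to 259.9 CPM to 207 to 227 CPM with siRNA 1 (−0.23 ± 0.05 SE, adjusted p = 0.00224) and to 196 to 224 CPM with siRNA 2 (−0.28 ± 0.05 SE, adjusted p = 9.53e-05). These 2 calls held under all 15 alternatives, but they share the control libraries.

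With siRNA 2 the corepressor Trim28 fell by 0.15 on the log2 scale (± 0.04 SE, adjusted p = 0.00835), a call lost without control replicate 3 (adjusted p = 0.0581). Tet1, the related dioxygenase, fell by 0.15 (± 0.04 SE, adjusted p = 0.0147), a call lost without control replicate 3 or siRNA 2 replicate 1 (adjusted p of up to 0.109). The chromatin remodeller Atrx fell by 0.18 (± 0.05 SE, adjusted p = 0.0215), a call lost without control replicate 2 or 3 or siRNA 2 replicate 1 or 2 (adjusted p of up to 0.123). The de novo methyltransferase Dnmt3b fell by 0.13 (± 0.04 SE, adjusted p = 0.0497), a call lost under 9 of 15 alternatives, among them without any 1 of the controls or of siRNA 2 replicates 1, 3 and 4 (adjusted p of up to 0.180). Its cofactor Dnmt3l rose (0.18 ± 0.04 SE, adjusted p = 0.00376), and so did Zfp445, a second zinc finger gene that acts on control regions (0.17 ± 0.05 SE, adjusted p = 0.0179). The Dnmt3l call held under all 15 alternatives, and the Zfp445 call was lost under 5 of them, among them without control replicate 2 or 3 or siRNA 2 replicate 1 (adjusted p of up to 0.115). Dnmt1, Uhrf1, Setdb1, Dppa3, Ctcf, Hells, Arid4a, Arid4b, Smchd1 and Dnmt3a did not pass with either siRNA.

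A list of 17 genes of the IGF pathway held ligands, receptors, binding proteins, adaptors and the RNA-binding proteins Igf2bp1, Igf2bp2 and Igf2bp3. Of these, 12 were tested, of which 2 passed with siRNA 1 (16.7%, beside 4.67% of all genes) and 3 with siRNA 2 (25%, beside 9.72%). Irs2, an adaptor of the receptors, rose with both siRNAs from 51.3 to 53.2 CPM to 60.2 to 63.5 CPM with siRNA 1 (0.24 ± 0.06 SE, adjusted p = 0.0191) and 57.8 to 67.9 CPM with siRNA 2 (0.25 ± 0.06 SE, adjusted p = 0.00744). The receptor Igf1r rose with siRNA 1 (0.26 ± 0.07 SE, adjusted p = 0.0158), and the siRNA 1 calls of Irs2 and Igf1r were lost in DESeq2 and without control replicate 2 or 3 (adjusted p of up to 0.111 for Irs2 and 0.0993 for Igf1r when any 1 library was left out). Irs2 was also lost without control replicate 1, and Igf1r without siRNA 1 replicate 1 or 2. The siRNA 2 call of Irs2 was lost only in DESeq2. The binding protein Igfbp5 fell with siRNA 2 from 14.1 to 18.6 CPM to 8.11 to 13.3 CPM (−0.63 ± 0.13 SE, adjusted p = 0.000937) and Igfbp2 from 196 to 223 CPM to 168 to 188 CPM (−0.20 ± 0.05 SE, adjusted p = 0.00799), the latter lost without control replicate 3 or siRNA 2 replicate 1 (adjusted p of up to 0.125). Both binding proteins were also lower with siRNA 2 than with siRNA 1 (Igfbp5 −0.79 ± 0.12 SE, adjusted p = 1.44e-05, and Igfbp2 −0.22 ± 0.05 SE, adjusted p = 0.00243).

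Markers of cell identity moved beside these genes. Of 10 ESC markers, 6 fell with siRNA 1, where 1.97% of all genes were lower, and 4 with siRNA 2, where 3.55% were lower. Their summed level went from 2530 to 2640 CPM in the controls to 2190 to 2390 and 2300 to 2450 CPM. Of 8 fibroblast markers 6 were tested, and with siRNA 2 Col1a1 and Dcn rose and Col3a1 fell, where 9.72% of all genes passed, with a summed level of 26.1 to 31.5 CPM in the controls, 29.1 to 31.5 CPM with siRNA 1 and 36.9 to 43.5 CPM with siRNA 2. The neural list was at 151 to 152 CPM in the controls, 163 to 185 CPM with siRNA 1 and 160 to 191 CPM with siRNA 2. Of its 4 genes only Nes passed against control, higher with each siRNA (0.26 ± 0.07 SE and 0.45 ± 0.07 SE). Over all genes 2.71% were higher with siRNA 1 and 6.17% with siRNA 2. Sox1 and Tubb3 did not pass against control. Pax6 of the same list was 0.38 ± 0.13 SE with siRNA 1 (adjusted p = 0.0887) and −0.30 ± 0.14 SE with siRNA 2 (adjusted p = 0.188), and it was lower with siRNA 2 than with siRNA 1 (−0.68 ± 0.13 SE, adjusted p = 0.000312). The endoderm, mesoderm and trophoblast lists stayed at or under 23.7, 8.61 and 7.98 CPM in every library, and none of their genes passed in any comparison. No marker was at 0 in every library. The part of these shifts in the values of the imprinted genes was not tested.

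Over all genes, the share of higher genes among those called rested on the scaling. It was 57.9% with siRNA 1 and 63.4% with siRNA 2 when libraries were scaled by total counts. It was 46.4% and 49.8% with TMM factors, and 37.8% and 44.6% in DESeq2. The 4 calls of members kept their direction under all 3 scalings.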

How the data were processed

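The 11 libraries held rRNA-depleted RNA prepared with a directional kit from E14 ESCs. The authors deposited 1 table per library of whole-number counts per Ensembl gene, and these are not normalized. Per the methods, reads were trimmed with Cutadapt and aligned to GRCm38 with STAR, and PCR duplicates were removed with Picard, which can lower the counts of highly expressed genes. The submitters' processing notes name featureCounts, while the summary lines of the tables have the form another counter writes, so the counting rule is not certain. In the 10 tables that hold summary lines (all but that of siRNA 2 replicate 4), 39.3 to 44.3% of reads fell on no gene, 0.963 to 1.05% were ambiguous and 5.79 to 6.32% aligned to several places, and these stayed out of library sizes and tests. Symbols, coordinates and exon lengths came from the GRCm38 annotation (GENCODE), which held 54723 of the 54838 identifiers, and sequences from RefSeq.

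Genes with more than 1 CPM in at least 4 libraries (16073) were tested with edgeR 4.0.16 in R 4.3.3, with libraries scaled to total counts, 1 mean per group over all 11 libraries, the quasi-likelihood test and Benjamini-Hochberg adjustment over all genes tested, called at 0.05. Every adjusted p is from this fit unless another tool is named. The standard error is the log2 fold change divided by the square root of F. Levels are CPM, or CPM per kilobase of all annotated exons for comparing genes. The test was tried on simulated data with known changes. No 2 libraries of a group agreed within sampling noise (chi-square per degree of freedom 1.31 to 2.96), and each was treated as 1 sample. Repeats of 1 culture can also differ by more than sampling noise, so this does not show that the libraries were separate cultures. The depth of 6738478 to 8382318 counted reads makes 3 reads worth 0.358 to 0.445 CPM, and this covers counting error only.

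The members and the gene lists were chosen with earlier results of these data known, so their counts are descriptions. All 10 members are named. Other genes are named where they passed in any comparison, and in clusters that hold a member all genes tested are named. Alternatives were TMM factors, DESeq2 1.42.0 without independent filtering, edgeR's exact test (the test the study names), other filters, 2 groups alone, a replicate block, library sizes without Gm26917, leaving out each library, and transcript lengths for levels. A length of unshared exon was added after seeing the data.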

Additional observations from a re-analysis of the deposited data

Results flagged for a closer look

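Dlk1 was the 1 member whose response differed between the siRNAs by the test of that difference (log2 fold change 0.53, siRNA 2 against siRNA 1, adjusted p = 0.0115). Among the other imprinted genes, Tspan32 (1.28), Cdkn1c (0.40), Pon2 (0.47), Grb10 (0.25), Slc38a4 (0.26) and Dcn (0.99) were higher with siRNA 2 than with siRNA 1 on the log2 scale. Mirg (−0.24), Copg2 (−0.20), Peg12 (−0.69), Nespas (−0.18) and H13 (−0.22) were lower with siRNA 2 than with siRNA 1. These 12 values compare the siRNA groups with each other. The Cdkn1c difference was lost without siRNA 1 replicate 4 or siRNA 2 replicate 2 (adjusted p of up to 0.0891), and the H13 difference without siRNA 1 replicate 2 or siRNA 2 replicate 1 (up to 0.0919).

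In 1 library a value stood apart from the other 3 of its group: Cd81 at 124 CPM in siRNA 2 replicate 2, with the others at 115 to 116 CPM. The rule looks at the gap to the nearest library as a share of the range (0.869, above Dixon's 95% critical value for 4 libraries). It was applied to 60 groups of 4 libraries, and chance gives about 1 flag in 20 groups.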

How the results depend on the processing

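The 4 calls of members kept their direction under all alternatives and passed in 49 of 61 of them. The 26 other member values were recomputed 399 times in all, of which 7 recomputations passed the test and 32 had the opposite sign. Leaving out control replicate 3 or 2 lost most, 20 and 19 of 38 calls of named genes, and DESeq2 lost 17 of 53. The cause was not tested.

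Members called with siRNA 1 numbered 2, but 1 in DESeq2, and 0 to 3 when a library was left out. With siRNA 2 there was 1, and 0 to 1 with a library left out. Between the siRNAs there was 1, but 2 with no filter, 2 with library sizes without Gm26917 and 0 in DESeq2 (5 members at an unadjusted p under 0.05 in edgeR), and 0 to 3 with a library left out. Other imprinted genes called ranged over 4 to 7 with siRNA 1, 7 to 15 with siRNA 2 and 8 to 12 between the siRNAs. Over all genes 751, 1562 and 1196 were called, but 450, 874 and 674 in DESeq2, and 355 to 850, 807 to 1667 and 724 to 1374 with a library left out.

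Signs changed as follows, as log2 fold changes. With siRNA 1, H19 was −0.0046 with TMM factors and −0.0086 in DESeq2, H13 −0.020 and −0.024, and Igfbp2 −0.0034 and −0.0071. With a replicate block, Peg3 was 0.016 with siRNA 1 and 0.031 with siRNA 2, Rian 0.0037 with siRNA 2 and Cdkn1c 0.044 with siRNA 1. With a library left out, the siRNA 1 values ranged for H19 from −0.014 to 0.042, Peg3 −0.069 to 0.012, Snrpn −0.068 to 0.021, Cdkn1c −0.14 to 0.080, H13 −0.036 to 0.051, Igfbp2 −0.027 to 0.067 and Pon2 −0.19 to 0.020. The siRNA 2 values ranged for H19 from −0.057 to 0.061, Igf2 −0.021 to 0.49, Rian −0.041 to 0.062, Peg3 −0.055 to 0.040 and Igf1r −0.0086 to 0.11. Between the siRNAs they ranged for H19 from −0.073 to 0.046, Igf2 −0.32 to 0.20, Peg3 −0.031 to 0.064 and Impact −0.049 to 0.020.

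Neither the labels nor the methods say whether equal replicate numbers mark samples handled together. Deviations from group means correlated at −0.078 to 0.084 over 10 same-number pairs and −0.10 to 0.10 over 30 others. These ranges overlap, and with so few libraries per group they cannot decide whether samples were paired. A replicate block left 2, 1 and 1 members called, and 840, 1486 and 1242 genes in all. Depth limits Igf2 (5 to 16 reads) and Dlk1 (50 to 105 reads) most.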
